A study of Danio rerio with 4 samples.

Results

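The potassium channel genes described here are the 109 genes of the deposited table, out of 23236 rows, whose name begins with kcn, a subfamily letter code and a number, and whose reads summed to at least 20 over the 4 libraries. They fall into 19 subfamilies by those letters. The name pattern alone matched 112 genes. The 3 left out had 15 (kcnk13b), 14 (kcnk12l) and 5 reads (kcns3b), and the members just inside had 50 (kcnj12a) and 55 reads (kcnj2b). RNA came from whole AB strain zebrafish (Danio rerio) at 7 days post fertilisation (dpf), untreated embryos from intercrosses of tubgcp6 heterozygotes. Genotyping sorted them into tubgcp6 mutants, with 2 libraries, and siblings, with 2 libraries, in which carriers and non-carriers of the mutation are not told apart by the labels. The product of tubgcp6 belongs to the gamma-tubulin ring complex, from which microtubules grow. The labels do not name the lesion, the number of embryos in a library or whether the groups shared clutches.

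Potassium channels let potassium leave or enter the cell along its gradient, and so set the resting potential and end action potentials in neurons, muscle and heart. Voltage-gated (Kv) channels open on depolarisation, inward rectifiers (Kir) and tandem-pore leak channels (K2P) hold the resting potential, and a further group opens on internal calcium or sodium. Modifier subunits make no current alone and change the Kv2 channels they join, while auxiliary subunits alter gating or surface delivery. In a whole embryo, most Kv genes are read largely from the nervous system, some Kir2 genes from muscle and heart, and some Kir genes from skin, kidney and pigment cells.

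Libraries held 17074352 and 17833761 assigned reads in mutants and 14246582 and 20652276 in siblings. The members took 0.0777% and 0.0902% of the reads in mutants and 0.0993% and 0.104% in siblings, and their median total was 390 reads. The reads of tubgcp6 itself were 510 and 531 in mutants and 498 and 803 in siblings, a log2 fold change of -0.33 ± 0.10 (SE; mutant over sibling throughout) with an adjusted p of 0.0123. Values are given as CPM (read counts scaled to a common library total by TMM), and a gene is called where edgeR's quasi-likelihood test gave a Benjamini-Hochberg adjusted p under 0.05 over the 20097 genes tested. CPM is not corrected for gene length, so levels are compared between groups and not between genes. As every library is from whole embryos, fewer cells of a type and less RNA per cell cannot be told apart.

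Potassium channel genes were read at lower levels in mutants more often than at higher levels. Of the 109 members, all of which were tested, 40 fell and 4 rose, or 36.7% and 3.67% of them, while 21.0% of all genes tested fell and 22.9% rose. The median log2 fold change of the members was -0.35, beside 0.007 over all genes tested, and 81 members had a value below 0. The members' summed level was 785 and 886 CPM in mutants, against 1000 and 1050 CPM in siblings. Both mutant libraries stood below both sibling libraries in 67 members and above them in 13, or 61.5% and 11.9% of members, beside 35.1% and 36.6% of all genes tested. Changes were mostly moderate, with 7 of the falls and 2 of the rises reaching 2-fold, or 6.42% and 1.83% of members beside 4.32% and 6.23% of all genes tested.

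The number of falls depended on the tool and on single libraries, whereas few members rose in any analysis. DESeq2 called 17 members lower and 2 higher, which is 15.6% and 1.83% of members beside 13.8% and 15.2% of all genes with an adjusted p in it. Without mutant replicate 1, the mutant library with the lower summed level, 27 members fell, or 24.8% beside 20.7% of all genes. Without sibling replicate 2, the deepest library, 18 fell and 2 rose, or 16.5% and 1.83% beside 11.9% and 14.6% of all genes. In these 3 analyses the share of members that fell was therefore near that of all genes. Most members still had a value below 0 in each of them. DESeq2 gave 82 of the 109 below 0 and a member median of -0.37, beside 81 and -0.35 in the main test. Leaving out mutant replicate 1 gave 82 and -0.25, and leaving out sibling replicate 2 gave 86 and -0.27. In every alternative tried 11 members were called. Among them were kcnj14, kcnv2a, kcnk2a, kcna2b, kcnb2, kcnh4b, kcnma1a and kcnc1a, all lower, and kcnj12b and kcnj2a, both higher.

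**Figure D1:**
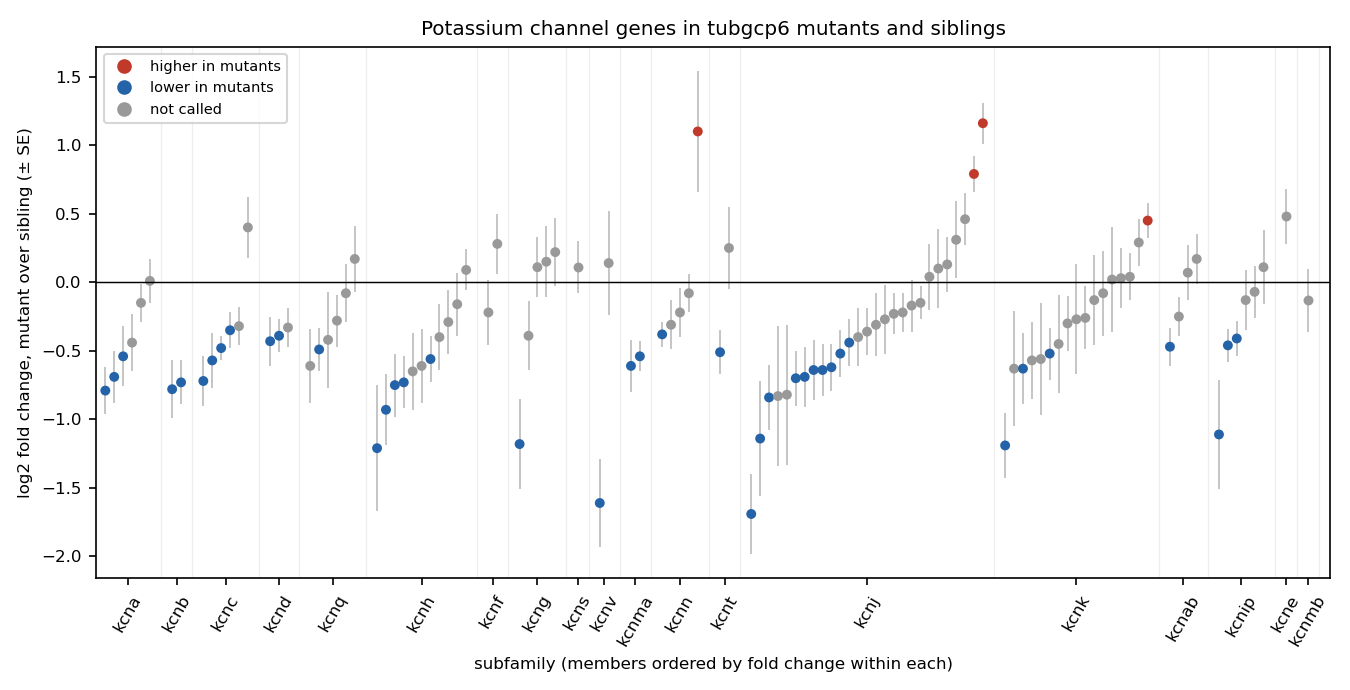
Log2 fold change (mutant over sibling, ± SE) of the 109 potassium channel genes, in columns by subfamily and ordered by fold change within each; red points rose, blue points fell and grey points were not called (edgeR, adjusted p under 0.05). Most points lie below 0, and the 4 red points are in kcnn, kcnj (2 genes) and kcnk.

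**Figure D2:**
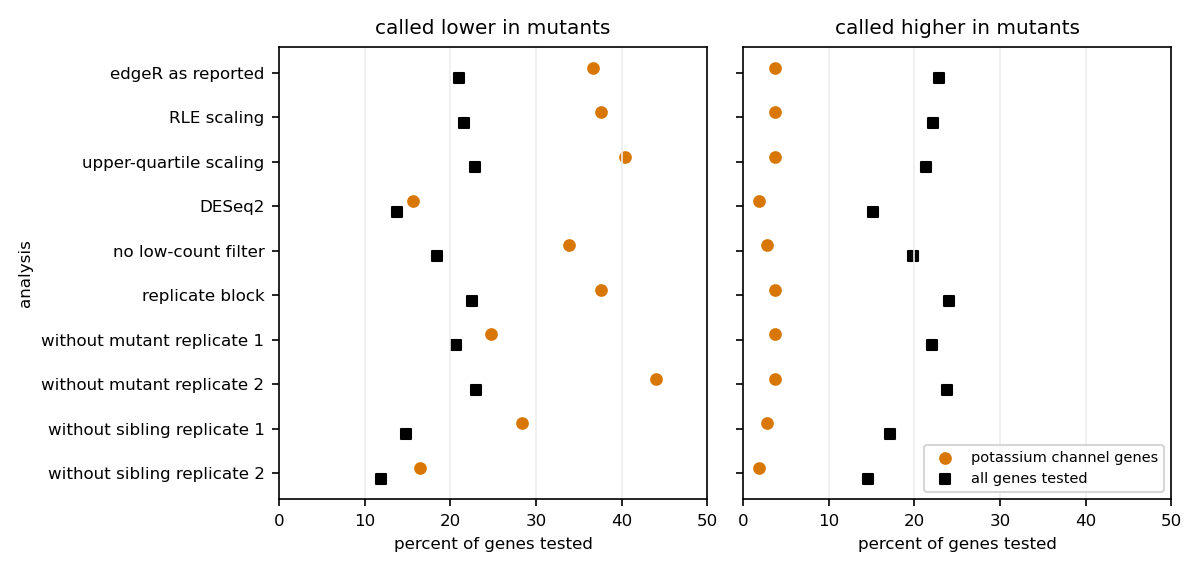
Percent of genes called lower (left) and higher (right) in mutants, for the potassium channel genes (orange circles) and all genes tested (black squares), under edgeR as reported and each alternative. The orange circles for rises stay between 1.83% and 3.67%, while those for falls run between 15.6% and 44.0% and come near the black squares with DESeq2 and without mutant replicate 1 or sibling replicate 2.

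The classical voltage-gated subfamilies kcna, kcnb, kcnc and kcnd (Kv1 to Kv4) hold 17 members, of which 11 fell, 0 rose and 6 were not called. That is 64.7% lower and 0% higher, beside 21.0% and 22.9% of all genes tested. Of the 17, 6 fell in DESeq2 and 7 when either sibling library was left out, and 0 rose in each of these. In DESeq2 13.8% of all genes fell and 15.2% rose. The summed level of the 17 was 201 and 247 CPM in mutants, against 299 and 304 CPM in siblings. Both mutant libraries lay below both sibling libraries in 14 of the 17, and in 35.1% of all genes tested. In the whole voltage-gated class 50% fell, beside 21.0% of all genes tested. Over all 34 voltage-gated members, kcnq and kcnh included, 17 fell and 0 rose, and in DESeq2 8 fell and 0 rose. Fewer than in the main test also fell without mutant replicate 1 or without either sibling library, and more fell without mutant replicate 2. The share of all genes that fell moved the same way in each of these analyses, though little without mutant replicate 1.

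Kv1 channels sit along axons in mammals and limit firing. The Kv1.2 gene kcna2b had 110 and 186 reads in mutants and 212 and 292 reads in siblings, which is 8.37 ± 2.65 CPM in mutants, against 14.6 ± 0.607 CPM in siblings (SD, n = 2 each). Its libraries did not overlap, and its log2 fold change was -0.79 ± 0.17 (SE), with an adjusted p of 0.000335. The Kv1.4 gene kcna4 had 4.97 and 9.36 CPM in mutants, against 11.3 and 11.8 CPM in siblings (-0.69 ± 0.19, adjusted p = 0.00492); its mutant libraries differed by more than its sibling libraries, and without mutant replicate 1 the value was -0.32 (adjusted p = 0.126), without mutant replicate 2 -1.23. For kcna2b it was -0.51 without mutant replicate 1, still called. The Kv1.1 copy kcna1b fell (-0.54 ± 0.22), a call lost in DESeq2 (adjusted p = 0.204), without the low-count filter and without mutant replicate 1 (adjusted p = 0.192) or sibling replicate 1 (0.0782) or 2 (0.283). By contrast kcna1a, with the most reads of the subfamily, was at -0.15 (95% interval -0.44 to 0.13), kcna6a at -0.44 (interval -0.87 to -0.01, adjusted p = 0.0917) and kcna7 at 0.01 (interval -0.33 to 0.34).

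Kv2 channels carry the slow delayed rectifier current of neuronal cell bodies. The gene kcnb2 had 8.22 and 6.61 CPM in mutants, against 12.9 and 11.7 CPM in siblings (-0.73 ± 0.16, adjusted p = 0.0006). Both mutant libraries were well below both sibling libraries, and no alternative ended the call.

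Kv3 channels allow fast repeated firing. The gene kcnc1a, with 5162 reads the member read most often, had 59.1 and 63.9 CPM in mutants, against 82.5 and 89.0 CPM in siblings. This fall of 0.48 on the log2 scale (SE 0.09, adjusted p = 7.6e-05) was among the smaller ones in size and among the best measured. Also lower was kcnc2, with 90 and 115 reads in mutants and 126 and 211 reads in siblings (-0.72 ± 0.18), a call lost without sibling replicate 2 (adjusted p = 0.0574). The copy kcnc1b was at -0.32 (interval -0.61 to -0.03, adjusted p = 0.0687), and kcnc4 stood on the other side at 0.40 (interval -0.05 to 0.85), with 4.97 and 5.29 CPM in mutants and 3.54 and 4.12 CPM in siblings.

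Kv4 channels carry the fast A-type current of dendrites and, in mammals, the heart. The gene kcnd2 had 17 and 19.3 CPM in mutants, against 24.6 and 23.0 CPM in siblings (-0.39 ± 0.12, adjusted p = 0.0107), and kcnd1 fell by 0.43 (SE 0.18, adjusted p = 0.0453). Without sibling replicate 1 or 2 the adjusted p was 0.124 or 0.0536 for kcnd2 and 0.0993 or 0.286 for kcnd1, which also lost its call without mutant replicate 2 (0.147), and DESeq2 called neither. The remaining Kv4 gene, kcnd3, had 12 and 13.8 CPM in mutants and 16.1 and 16.3 CPM in siblings, with -0.33 ± 0.14 and an adjusted p of 0.0524.

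Of the 12 auxiliary subunit genes, 11 of them for Kv channels and 1 for BK channels, 4 fell and 0 rose, or 33.3% lower, beside 36.7% of all members and 21.0% of all genes tested. The KChIP genes (kcnip), calcium-binding partners of Kv4, gave 3 of these falls. The gene kcnip1b had 22.2 and 18.9 CPM in mutants, against 26.1 and 30.3 CPM in siblings (-0.46 ± 0.12, adjusted p = 0.00218), and kcnip3a had 16 and 14.7 CPM in mutants, against 20.8 and 20 CPM in siblings (-0.41 ± 0.13, adjusted p = 0.00974). The gene kcnip2, at 12 and 15 reads in mutants and 19 and 39 reads in siblings, fell by 1.11 (SE 0.40, adjusted p = 0.0265). Of the Kv1 beta subunit genes, kcnab2b fell, with 10 and 10.5 CPM in mutants and 14.7 and 13.9 CPM in siblings (-0.47 ± 0.14, adjusted p = 0.00904), and kcnab2a was at -0.25 (interval -0.54 to 0.04). The MinK-related gene kcne4 had 6.50 and 6.61 CPM in mutants and 5.17 and 4.36 CPM in siblings (0.48 ± 0.20, adjusted p = 0.0549), and the BK beta gene kcnmb2 was at -0.13 ± 0.23. All 4 auxiliary calls were lost without sibling replicate 2, with an adjusted p of 0.13 for kcnip1b, 0.0693 for kcnip3a, 0.333 for kcnip2 and 0.0549 for kcnab2b. Without sibling replicate 1 the calls of kcnip3a (0.0941) and kcnab2b (0.0835) were lost, without mutant replicate 1 that of kcnip2 (0.0893), and DESeq2 kept only kcnip1b.

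In the kcnh subfamily, whose products are the EAG, ERG and ELK channels, 5 of 11 members fell and 10 had a value below 0. The falls are 45.5% of the subfamily, beside 21.0% of all genes tested, of which 49.3% had a value below 0. The ELK genes, expressed in the mammalian brain, gave 3 of the falls in 4 members. The gene kcnh4b had 4.49 and 6.11 CPM in mutants, against 8.85 and 8.82 CPM in siblings (-0.73 ± 0.19, adjusted p = 0.00232). The gene kcnh3 had 2.13 and 2.26 CPM in mutants, against 3.90 and 4.41 CPM in siblings (-0.93 ± 0.26, adjusted p = 0.00427). The gene kcnh8, at 6 and 14 reads in mutants and 20 and 26 reads in siblings, fell by 1.21 (SE 0.46, adjusted p = 0.0335), with -0.78 (adjusted p = 0.237) without mutant replicate 1, -1.88 (adjusted p = 0.0124) without mutant replicate 2 and no call without either sibling library (0.108 and 0.104) or in DESeq2 (0.194). DESeq2 did not call kcnh3 (adjusted p = 0.0516), nor did edgeR without sibling replicate 2 (0.0782). Of the EAG genes kcnh5a fell (-0.75 ± 0.23), though not without sibling replicate 1 (adjusted p = 0.0579) or in DESeq2 (0.0742). Of the ERG genes kcnh7 fell, with 8.33 and 14.3 CPM in mutants and 16.8 and 16.7 CPM in siblings (-0.56 ± 0.17). Without mutant replicate 1 kcnh7 was at -0.24 (adjusted p = 0.171), and without mutant replicate 2 at -1.01. The gene kcnh6a, which repolarises the zebrafish heart, had 11.2 and 14.9 CPM in mutants and 11.9 and 12.6 CPM in siblings, groups that overlapped (0.09, interval -0.22 to 0.40).

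Kv7 channels (kcnq) give the M-current that damps repeated firing, and, with kcne partners, a repolarising current in heart and epithelia. Of 6 kcnq members 1 fell and 0 rose, or 16.7% and 0%, beside 21.0% and 22.9% of all genes tested. The fall was that of kcnq3, with 7.80 and 11.5 CPM in mutants, against 13.7 and 13.5 CPM in siblings (-0.49 ± 0.16, adjusted p = 0.014). Without mutant replicate 1 it was at -0.26 (adjusted p = 0.185) and without mutant replicate 2 at -0.80, and without sibling replicate 1 (0.0538) or 2 (0.0632) it was not called, nor in DESeq2 (0.0814). The other 5 lay between -0.61 (kcnq1.1, adjusted p = 0.0743) and 0.17 (kcnq2a), with kcnq1.2 at -0.42 ± 0.35.

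Modifier subunit genes (kcnf, kcng, kcns and kcnv) were mostly not called, with a median of 0.11 over 10 members, but 2 of them fell at least 2-fold. These were the only calls, or 20% lower and 0% higher, beside 21.0% and 22.9% of all genes tested. The share that fell was therefore near that of all genes. The gene kcnv2a, whose human counterpart encodes a photoreceptor subunit mutated in a cone dystrophy, had 25 and 17 reads in mutants and 41 and 87 reads in siblings. That is 1.48 and 0.936 CPM in mutants, against 2.90 and 4.22 CPM in siblings, without overlap, and a log2 fold change of -1.61 ± 0.32 (adjusted p = 0.00016). Its copy kcnv2b had 1.6 and 1.16 CPM in mutants and 1.42 and 1.12 CPM in siblings, with overlapping groups (0.14, interval -0.63 to 0.92). All 19 photoreceptor marker genes listed fell, with a median of -1.47; they summed to 1410 and 1090 CPM in mutants, against 3720 and 3570 CPM in siblings, and none was at 0. The part of photoreceptor RNA in the value of kcnv2a was not tested. The other fall was that of kcng4b, with 15 and 30 reads in mutants and 46 and 55 reads in siblings (-1.18 ± 0.33, adjusted p = 0.00446; adjusted p = 0.0599 without mutant replicate 1), while its copy kcng4a was at 0.11 ± 0.22. Not called were also kcnf1a (0.28 ± 0.22) and kcns3a (0.11 ± 0.19).

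Channels opened by calcium or sodium fell in 4 of 9 members, and 1 rose; without sibling replicate 2 only 1 fell (kcnma1a) and 0 rose, and in DESeq2 2 fell and 0 rose. The 4 falls are 44.4% of the class and the rise 11.1%, beside 21.0% and 22.9% of all genes tested. For DESeq2 the shares of all genes were 13.8% and 15.2%. BK channels, encoded by kcnma1 genes, open on both voltage and calcium and shorten action potentials. The gene kcnma1a had 36.2 and 49.8 CPM in mutants, against 57.4 and 67.2 CPM in siblings (-0.54 ± 0.11, adjusted p = 0.000318), and its copy kcnma1b had 5.02 and 6 CPM in mutants, against 7.58 and 9.12 CPM in siblings (-0.61 ± 0.19, adjusted p = 0.00925). Both copies were separated between the groups. Without mutant replicate 1 kcnma1a was at -0.34 and still called, and kcnma1b was not called without sibling replicate 2 (adjusted p = 0.204) or in DESeq2 (0.0749). Among SK genes, whose channels act in the after-hyperpolarisation, kcnn1a had 48.2 and 52.9 CPM in mutants, against 63.4 and 68.4 CPM in siblings. Its log2 fold change was -0.38 ± 0.09 (adjusted p = 0.0014), a call lost without sibling replicate 2. The other SK genes lay between -0.31 (kcnn1b) and -0.08 (kcnn3) and were not called. The sodium-activated channel gene kcnt1 fell, with 7.15 and 8.26 CPM in mutants, against 10.3 and 11.5 CPM in siblings (-0.51 ± 0.16, adjusted p = 0.013, or 0.194 without sibling replicate 2 and 0.0866 in DESeq2), and kcnt2 was at 0.25 ± 0.30.

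The rise in this class was that of kcnn4, the intermediate-conductance channel of red and immune cells in mammals. It had 19 and 31 reads in mutants and 6 and 17 reads in siblings, or 1.12 and 1.71 CPM in mutants, against 0.425 and 0.824 CPM in siblings (1.1 ± 0.44, adjusted p = 0.0445). At these counts the call was lost in DESeq2 (adjusted p = 0.23), without the low-count filter (0.0616), and without mutant replicate 2 (0.274) or sibling replicate 1 (0.255) or 2 (0.054, at a log2 fold change of 1.73).

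The 27 inward rectifier genes (kcnj) had the widest range, between -1.69 and 1.16 on the log2 scale, with 10 lower, 2 higher and 15 not called; 4 were lower without sibling replicate 2 and 3 in DESeq2, with 2 higher in both. The 10 falls are 37% of the kcnj genes and the 2 rises 7.41%, beside 21.0% and 22.9% of all genes tested. In DESeq2 13.8% of all genes fell, so the share of kcnj genes that fell there was near that of all genes. Kir2 channels are strong rectifiers, some of which hold the resting potential of muscle and heart, and their genes were split. The Kir2.1 gene kcnj2a had 16 and 16.7 CPM in mutants, against 7.44 and 7.18 CPM in siblings. Both mutant libraries stood far above both sibling libraries, and it had the smallest p of any member (1.16 ± 0.15, adjusted p = 2.26e-07). Its ratio of mean CPM, mutant over sibling, was 2.24, beside 2.27 for kcnn4. The Kir2.2 gene kcnj12b had 22.9 and 28.6 CPM in mutants, against 14.9 and 15 CPM in siblings (0.79 ± 0.13, adjusted p = 9.59e-06).

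The Kir2.4 gene kcnj14 went the other way and showed the largest fall of any member. It had 43 and 20 reads in mutants and 65 and 139 reads in siblings, or 2.54 and 1.1 CPM in mutants, against 4.6 and 6.74 CPM in siblings (-1.69 ± 0.29, adjusted p = 2.22e-05). The Kir2.3 gene kcnj4 also fell, at 10 and 14 reads in mutants and 17 and 36 reads in siblings (-1.14 ± 0.42, adjusted p = 0.0289), a call lost without mutant replicate 1 (0.115) or sibling replicate 2 (0.358) and in DESeq2 (0.204). The sparse copies kcnj2b (-0.82 ± 0.51) and kcnj12a (-0.83 ± 0.51) were not called. As a whole, Kir2 reads summed to 43.0 and 48.4 CPM in mutants, against 29.9 and 32.7 CPM in siblings, because kcnj2a and kcnj12b hold most of them. Of 14 heart muscle markers 9 rose and 0 fell, with a summed level of 445 and 416 CPM in mutants and 337 and 308 CPM in siblings. Of 19 skeletal muscle markers 5 rose and 2 fell, at 60400 and 57200 CPM in mutants and 57700 and 55600 CPM in siblings. The share that rose was 64.3% for heart and 26.3% for skeletal muscle, the latter near the 22.9% of all genes tested. The share that fell was 0% and 10.5%, beside 21.0% of all genes tested. No marker of either list was at 0, and their part in the rise of kcnj2a and kcnj12b was not tested.

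**Figure D3:**
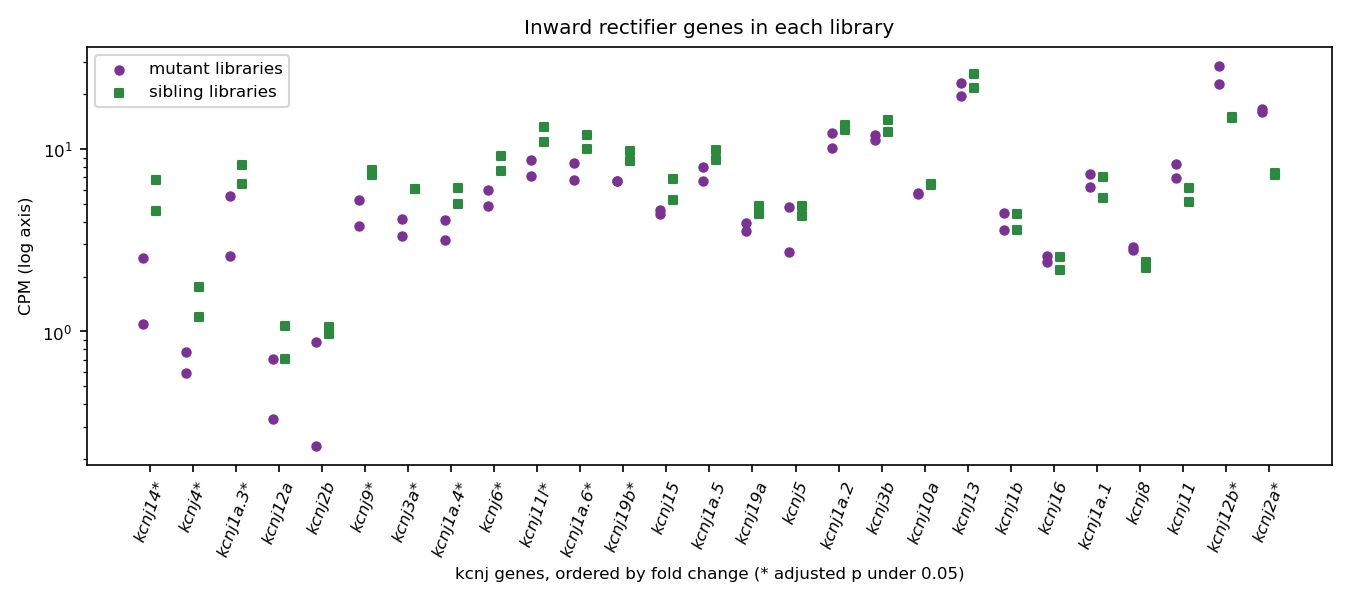
CPM on a log axis of the 27 inward rectifier (kcnj) genes in each library, mutants as purple circles and siblings as green squares, ordered by fold change, with called genes starred. At the right end the mutant libraries of kcnj12b and kcnj2a lie above the sibling libraries, and at the left end those of kcnj14 and kcnj4 lie below.

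Kir3 channels open on G-protein signals and slow neurons and pacemaker cells. All 5 Kir3 genes had a value below 0, beside 49.3% of all genes tested. Of the 5, 3 fell and 0 rose, or 60% and 0%, beside 21.0% and 22.9% of all genes tested. The gene kcnj9 had 3.78 and 5.29 CPM in mutants, against 7.65 and 7.18 CPM in siblings (-0.70 ± 0.20), kcnj6 had 4.85 and 6 CPM in mutants, against 7.58 and 9.16 CPM in siblings (-0.64 ± 0.19), and kcnj3a had 4.14 and 3.36 CPM in mutants, against 6.02 and 6.01 CPM in siblings (-0.69 ± 0.22). DESeq2 called none of the 3 (adjusted p between 0.0516 and 0.083). The call of kcnj9 was lost without mutant replicate 1 (0.0631), that of kcnj6 without sibling replicate 2 (0.18) and that of kcnj3a without mutant replicate 2 (0.0671) or sibling replicate 2 (0.0728). Not called were kcnj3b (-0.22 ± 0.14) and kcnj5, whose groups overlapped (-0.27 ± 0.25).

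Kir1 channels secrete potassium in the mammalian kidney. Zebrafish hold 6 copies, kcnj1a.1 to kcnj1a.6, which follow each other on chromosome 18 in the RefSeq table (assembly GRCz12tu) with 0 genes between them. Reads of such copies can be split uncertainly. Of these 6, kcnj1a.3 (-0.84 ± 0.24), kcnj1a.4 (-0.64 ± 0.22) and kcnj1a.6 (-0.52 ± 0.17) fell, and the other 3 lay between -0.36 and 0.13. For kcnj1a.3 the values were 5.56 and 2.59 CPM in mutants and 8.22 and 6.45 CPM in siblings, with -1.48 without mutant replicate 1 and -0.37 (adjusted p = 0.163) without mutant replicate 2. The call of kcnj1a.4 was lost without mutant replicate 2 (0.122) or sibling replicate 2 (0.277), that of kcnj1a.6 without mutant replicate 1 (0.0803) or sibling replicate 1 (0.162), and both in DESeq2. With kcnj1b, on another chromosome and at 0.04 ± 0.24, Kir1 genes summed to 47.5 and 41.7 CPM in mutants, against 58.9 and 54.4 CPM in siblings. Among 16 ionocyte and kidney markers 3 rose and 6 fell, or 18.8% and 37.5%, beside 22.9% and 21.0% of all genes tested. These markers summed to 966 and 1020 CPM in mutants and 1270 and 1250 CPM in siblings, with none at 0. The sum leans on atp1a1a.4, with a mean of 432 CPM in mutants and 629 CPM in siblings. The 3 that rose were ca2 (0.72), slc9a3.2 (1.36) and slc12a10.2 (0.30), and the 6 that fell lay between -1.68 (cubn) and -0.30 (slc20a1a). The part of the ionocyte and kidney markers in the Kir1 values was not tested.

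The remaining Kir genes were mostly not called. Kir6 channels join sulfonylurea receptors to form channels closed by ATP. The gene kcnj11 had 8.33 and 6.94 CPM in mutants and 6.09 and 5.14 CPM in siblings (0.46 ± 0.19, adjusted p = 0.054), while the related kcnj11l fell, with 8.75 and 7.10 CPM in mutants and 10.9 and 13.2 CPM in siblings (-0.62 ± 0.17, adjusted p = 0.0028, or 0.128 without sibling replicate 2), and kcnj8 was at 0.31 ± 0.28. Their receptor genes abcc8 (-0.26 ± 0.11) and abcc9 (0.02 ± 0.11) were not called. Of 15 islet markers 4 rose and 6 fell, or 26.7% and 40%, beside 22.9% and 21.0% of all genes tested. The islet markers summed to 350 and 335 CPM in mutants and 576 and 554 CPM in siblings. This sum leans on neurod1, with a mean of 79.5 CPM in mutants and 246 CPM in siblings. The 4 that rose were ins (0.60), gcga (1.44), gcgb (1.70) and g6pcb (1.61). The 6 that fell lay between -1.63 (neurod1) and -0.30 (pcsk2), so the sum does not give the direction of each marker. No islet marker was at 0. Whether their reads came from islets or from other tissues of the whole embryo was not tested, nor was their part in the Kir6 values. The gene kcnj13, which shapes the zebrafish stripe pattern and had the most reads of the Kir genes, had 19.7 and 23.2 CPM in mutants and 21.6 and 25.7 CPM in siblings, with overlapping groups (-0.15, interval -0.40 to 0.10). Of 14 pigment cell markers 5 rose and 3 fell, or 35.7% and 21.4%, beside 22.9% and 21.0% of all genes tested. The pigment markers summed to 886 and 896 CPM in mutants and 755 and 712 CPM in siblings. The glial Kir4.1 gene kcnj10a was at -0.17 (interval -0.56 to 0.22). Of 15 glial markers 5 rose and 6 fell, or 33.3% and 40%, beside 22.9% and 21.0% of all genes tested. The glial markers summed to 2140 and 1990 CPM in mutants and 1850 and 1820 CPM in siblings. These sums lean on single genes. The mean of glulb was 736 CPM in mutants and 434 CPM in siblings, a wider gap than that of the sums, while slc1a2b fell (309 and 418 CPM). No pigment or glial marker was at 0. The gene kcnj19b fell (-0.44 ± 0.17, adjusted p = 0.0393), a call lost in DESeq2 (0.163) and when any 1 library was left out (adjusted p between 0.0585 and 0.248).

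Tandem-pore leak channel genes (kcnk) fell in 3 of 17 members and rose in 1, with a median of -0.27. The share that fell, 17.6%, was near the 21.0% of all genes tested. Only kcnk2a kept its fall without mutant replicate 1, without sibling replicate 2 and in DESeq2. The TREK channel gene kcnk2a, gated by membrane stretch, temperature and lipids in mammals, had 3.25 and 2.31 CPM in mutants, against 5.24 and 7.13 CPM in siblings (-1.19 ± 0.24, adjusted p = 0.000177). Its copy kcnk2b fell as well (-0.63 ± 0.26, adjusted p = 0.0482), though not in DESeq2 (0.23), without the low-count filter (0.0591), or without mutant replicate 1 (-0.40, adjusted p = 0.26) or sibling replicate 2 (-0.37, adjusted p = 0.477), and without mutant replicate 2 it was at -0.95. All 5 TREK and TRAAK genes had values below 0, beside 49.3% of all genes tested. The TWIK gene kcnk1b had 5.67 and 7.32 CPM in mutants, against 8 and 10.4 CPM in siblings (-0.52 ± 0.19, adjusted p = 0.023). The rise was that of kcnk6, also of the TWIK group, with 23.1 and 18.4 CPM in mutants, against 15.8 and 14.7 CPM in siblings (0.45 ± 0.13, adjusted p = 0.00701). Without mutant replicate 1 kcnk1b was at -0.37 (adjusted p = 0.116) and kcnk6 at 0.27 (adjusted p = 0.0997), without sibling replicate 2 they were at -0.30 (adjusted p = 0.422) and 0.39 (adjusted p = 0.118), and DESeq2 called neither. The fin growth gene kcnk5b was at 0.04 (interval -0.30 to 0.39), and none of the 4 TASK genes was called.

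**Figure D4:**
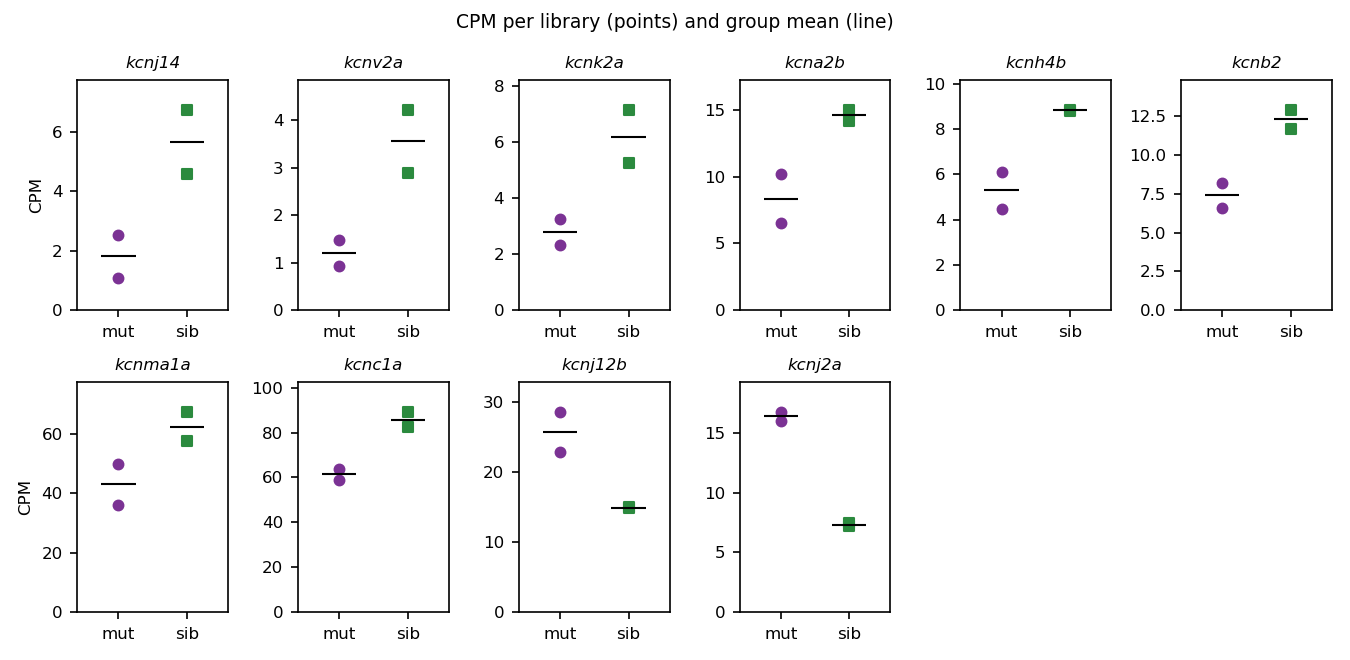
CPM in each library of 10 of the 11 potassium channel genes called in every alternative tried, mutants as purple circles (left in each panel) and siblings as green squares (right), with the group mean as a line. In 8 genes both mutant libraries are below both sibling libraries, and in kcnj12b and kcnj2a above.

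Many zebrafish channel genes exist as copies a and b from a genome duplication, and the members hold 25 such pairs. Both copies fell in 3 pairs, kcnk2 and kcnma1 among them, 1 copy fell and the other was not called in 13, 1 copy rose and the other was not called in 2, and neither was called in 7. In DESeq2 both copies fell in 0 pairs, 1 copy fell in 8 and neither was called in 15. Both copies fell in 1 pair without sibling replicate 2, in 1 without mutant replicate 1, in 1 without the low-count filter, in 5 with upper-quartile scaling and in 9 without mutant replicate 2. The values of the copies had opposite signs in 7 pairs, with at most 1 copy called in each. Without mutant replicate 2 kcnj2b was called lower (-2.06, adjusted p = 0.0203) and kcnj2a higher. The widest gap between copies was in kcnj2, with kcnj2a at 1.16 (interval 0.86 to 1.47) and kcnj2b at -0.82 (interval -1.85 to 0.22). The pairs kcnv2, kcnj12 and kcng4 followed, with gaps of -1.75, -1.62 and 1.30 between copy a and copy b. These differences between copies were not tested, and in each of the 4 pairs at least 1 copy had at most 146 reads in all.

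**Figure D5:**
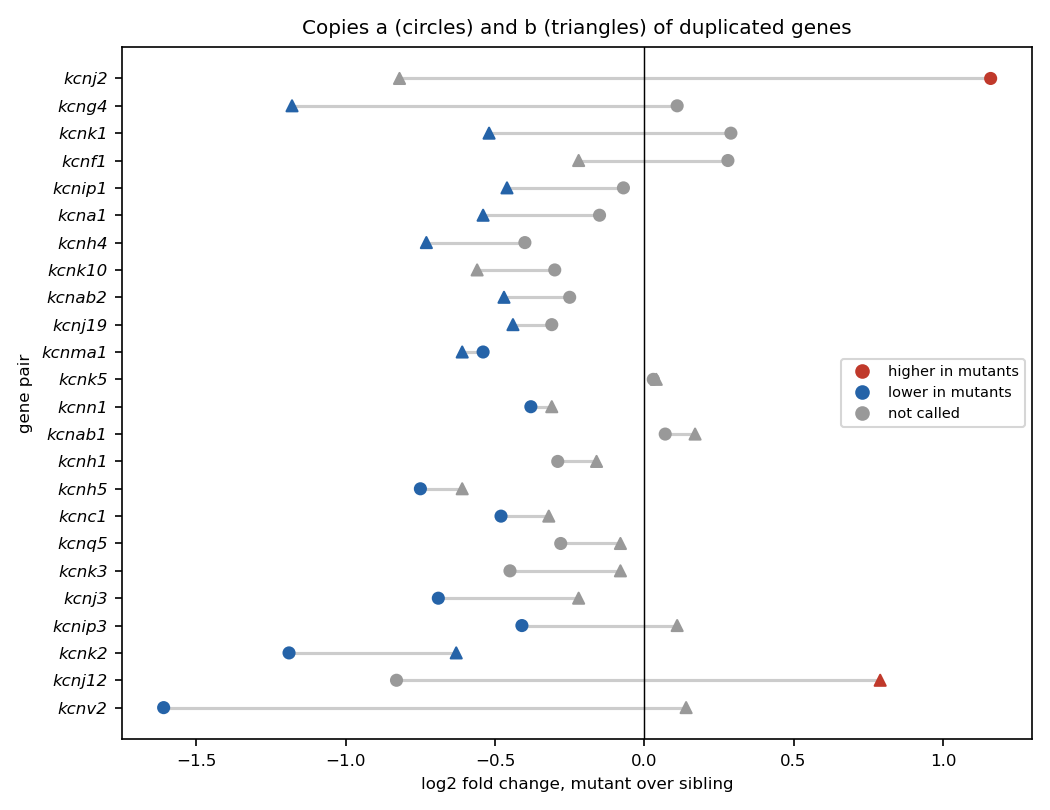
Log2 fold change (mutant over sibling) of copy a (circles) and copy b (triangles) in 24 of the 25 gene pairs, coloured by call. The lines are longest for kcnj2, kcnv2, kcnj12 and kcng4, and red points are found only in kcnj2 and kcnj12.

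Among 23 listed genes that work with potassium channels, 15 fell and 1 rose, or 65.2% and 4.35%, beside 21.0% and 22.9% of all genes tested. Their median was -0.50. Calls of the listed partner, ion transport and marker genes were not examined under the alternatives, in which many falls of members were lost. The Kv4 partner dpp6a fell by 0.50 (SE 0.14), the Kv2 partner amigo1 by 0.40 (SE 0.15), and the Kv1 complex genes cntnap2b, lgi1b and adam22 by 0.61 (SE 0.11), 0.74 (SE 0.16) and 0.66 (SE 0.10). Their copies dpp6b (-0.12, adjusted p = 0.354), cntnap2a (-0.04, adjusted p = 0.793) and lgi1a (-0.05, adjusted p = 0.73) were not called. The cation channel genes hcn4 (-1.14 ± 0.26) and hcn3 (-1.05 ± 0.36, 104 reads), which pass potassium and sodium and drive pacemaking, fell too. Not called were hcn4l (-0.55 ± 0.23, adjusted p = 0.0552) and hcn2b (0.09 ± 0.15, adjusted p = 0.668), with 774 reads the most read of the listed hcn genes. In a list of 36 other ion transport genes, 2 of them also among the neuron markers, the median was -0.17, and 12 fell while 7 rose. That is 33.3% lower and 19.4% higher, the latter near the 22.9% of all genes tested, while 21.0% of all genes fell. Among the 36, the neuronal chloride exporter slc12a5b (-0.73 ± 0.10) and the sodium channel genes scn8aa (-0.43 ± 0.09) and scn1lab (-0.48 ± 0.10) fell. The copy scn8ab was at -0.18 (adjusted p = 0.206). Of the neuronal sodium pump genes, atp1a3a fell (-0.38 ± 0.08, adjusted p = 0.000527) and atp1a3b was at 0.13 (adjusted p = 0.196). The muscle sodium channel gene scn4aa, with 118 reads, rose (1.66 ± 0.39), while its copy scn4ab, with 3754 reads, was at 0.03 (adjusted p = 0.848). The muscle chloride channel gene clcn1b rose (0.63 ± 0.21), and its copy clcn1a was at 0.42 (adjusted p = 0.0612).

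Of 25 general neuron markers 12 fell, 1 rose and 12 were not called, with a median of -0.07. That is 48% lower and 4% higher, beside 21.0% and 22.9% of all genes tested. The neuron markers summed to 3130 and 3270 CPM in mutants, against 3620 and 3760 CPM in siblings. Synaptic genes snap25b (-0.57 ± 0.09) and vamp2 (-0.52 ± 0.09) fell, while the axon gene map1b rose (0.31 ± 0.10) and snap25a was at 0.05 ± 0.08. Of 15 hair cell markers, 14 of them tested, 6 fell and 0 rose, or 42.9% and 0% of those tested, beside 21.0% and 22.9% of all genes. The hair cell markers summed to 163 and 168 CPM in mutants and 261 and 258 CPM in siblings. All 12 listed genes of dividing cells rose, at 616 and 665 CPM in mutants and 209 and 206 CPM in siblings. No marker of these 3 lists was at 0. The part of each tissue's RNA in the values of the channel genes was not tested.

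In the RefSeq table, 103 of the 109 members had an entry, and 6 lay on chromosome 25, which also holds tubgcp6. Of these 6, kcnj11l was called lower, while 21.0% of all genes tested fell and 22.9% rose. Not called were kcna1a, kcna6a, kcnc1b, kcnj11 and kcnq1.2, with an adjusted p between 0.054 (kcnj11) and 0.395 (kcna1a).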

How the data were processed

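The file deposited by the authors gives whole-number read counts for each gene in 4 libraries, not normalized. Per the submitters' processing notes, which give no roles, the tools were featureCounts 2.0.1, STAR 2.7.10a, DESeq2 1.26.0, fastp 0.23.2 and R 4.2.2, with build GRCz11. How strand and multi-mapping reads were handled, and with which annotation, is not stated in the labels, so overlapping genes and near-identical copies (kcnj1a.1 to kcnj1a.6) carry uncertain reads. Per the labels' protocols, total RNA was taken with Trizol and libraries made with a NEBNext Ultra kit.

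Counts were tested on the whole table in R 4.3.3 with edgeR 4.0.16: filterByExpr (20097 of 23236 rows kept), TMM scaling, glmQLFit with legacy=FALSE and glmQLFTest, mutant over sibling, with Benjamini-Hochberg adjustment at 0.05. The SE was derived from each log2 fold change and its F statistic, and intervals are at 95%. The biological coefficient of variation was 7.19%. The titles call the 2 libraries of each group biological replicates. With 2 libraries a group, p-values reflect only how far these libraries spread, estimated in part over many genes, and some of that spread may be technical. The test was also run on counts simulated from the fitted model, with far fewer changed genes than were called here. That run cannot tell how reliable the calls in these data are.

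Members and lists were chosen with earlier results of these data known. Of 237 entries in 12 lists 223 matched, 7 through a synonym. Genes named in detail were the 12 called members with the largest fall and the 4 that rose, and in each subfamily the called members with the smallest p and the member with most reads; others were chosen after their values were seen. Alternatives were other scalings, DESeq2 1.42.0, no filter, the replicate number as a block, and leaving out each library; counts per class and per pair under them were added after seeing the data. RefSeq symbols matched 102 members and a synonym 1. Sequences were not used here. Several genes that entered the fit and the counts are not reported here by name.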

Additional observations from a re-analysis of the deposited data

How the results depend on the processing

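The members' median total was 390 reads, beside 1049 over all genes tested, and their log2 fold changes had a median SE of 0.21, which limits what can be called for single genes. Of the 44 called members, 44 kept their call with RLE scaling, 44 with upper-quartile scaling, 40 without the low-count filter and 19 in DESeq2, and 0 changed sign under any alternative. DESeq2 called 2 members higher and 17 lower. When 1 library was left out, between 2 and 4 members were called higher and between 18 and 48 lower, beside 2977 to 4840 higher and 2429 to 4680 lower among all genes; the lowest of each came without sibling replicate 2. The same libraries gave between 20 and 38 kept calls of the 44. A membership minimum of 10 or 100 reads gave 40 or 37 falls and 4 or 3 rises. No scaling moved the median of all genes by more than 0.1.

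With the replicate number as a block, 41 members were lower and 4 higher. The deviations of same-numbered libraries from their group means had a correlation of 0.037 over the tested genes, so the numbers are not shown to pair libraries.

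Values near 0 that were not called changed sign. The value of kcna7 was 0.00 with RLE scaling (just below 0), -0.02 with upper-quartile scaling and -0.01 in DESeq2, and lay between -0.11 and 0.11 when 1 library was left out. Over the same omissions the log2 fold change lay between -0.41 and 0.05 for kcna1a, between -0.05 and 0.37 for kcng4a, between -0.14 and 0.27 for kcnh6a, between -0.08 and 0.32 for kcnj1a.1, between -0.12 and 0.18 for kcnj1b, between -0.74 and 0.06 for kcnj5, between -0.13 and 0.19 for kcnk5b, between -0.15 and 0.44 for kcnq2a, between -0.07 and 0.52 for kcnt2 and between -0.11 and 0.36 for kcnv2b. The cause of these changes was not tested.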
